A study of Mus musculus with 26 samples.

Results

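The general pluripotency core factors examined here are 9 genes, Pou5f1, Sox2, Sall4, Lin28a, Lin28b, Utf1, Dppa2, Dppa4 and Trim71, out of the 24015 genes listed in each RNA-seq library. They were chosen by name, for their known part in pluripotency, and all 9 passed the filter on low values used for testing. The study asked what the co-repressor Mtgr1 does for Prdm14 in mouse embryonic stem cells (mESCs), and the question followed here is whether the core stayed in place while naive and lineage genes moved. The 15 libraries cover 7 conditions. All lines derive from mESCs with a Stella:GFP reporter and were kept in 2i+LIF, a serum-free medium with inhibitors of MEK and GSK3β. The wild-type (wt) cells were measured with 1 library in serum+LIF and 2 in 2i+LIF. The other lines were measured after 5 days without feeder cells in serum+LIF. They were Prdm14-/- cells (clones G6 and F10, cut in exon 2 by CRISPR-Cas9), the same clones reconstituted with FLAG-HA-tagged Prdm14 cDNA (FH-Prdm14), the same clones reconstituted with the E294K point mutant of Prdm14, which impairs binding to Mtgr1, Mtgr1-/- cells (clones A3, C1 and C3, cut in exon 3) and the same clones reconstituted with FH-Mtgr1. Each knockout library is 1 clone, and each rescue derives from that clone. The p-values rest on the spread between libraries of a condition, pooled over the conditions. In the knockouts and rescues that is the spread between clones, but the pool also holds the 2i+LIF pair of wt libraries.

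Pluripotent cells hold a shared set of regulators in both the naive state of the preimplantation epiblast and the primed state after implantation. Oct4 (the product of Pou5f1) and Sox2 bind DNA as a pair and switch on most other pluripotency genes, and Sall4 is a zinc finger factor that works beside them. Lin28a and Lin28b are RNA-binding proteins that block the maturation of let-7 microRNAs, Trim71 is an RNA-binding repressor that is itself a classic let-7 target, and Utf1, Dppa2 and Dppa4 are chromatin-associated proteins. Naive factors such as Klf4, Tbx3 and Esrrb, in contrast, are lost as cells move towards the primed state.

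Levels are RPKM, that is, read counts divided by gene length and by the total of reads on genes, with 10668572 to 21218414 reads on genes per library. The Prdm14 RNA was at 1.96 to 3.60 RPKM in Prdm14-/- cells against 2.77 in wt serum+LIF cells, so that its level does not check the knockout. It was at 79.8 to 116 RPKM in the FH-Prdm14 and E294K lines, above wt cells in serum+LIF and in 2i+LIF (19.1 to 30.8). Cbfa2t2, which encodes Mtgr1, was at 18.0 to 19.9 RPKM in Mtgr1-/- cells, 25.5 to 28.0 in the FH-Mtgr1 lines and 40.7 in wt serum+LIF cells. Its level does not check the Mtgr1 knockout either, with 16.6 to 16.8 RPKM in Prdm14-/- cells and 21.4 to 25.7 in wt 2i+LIF cells. Some libraries stood apart from others of their condition. A chi-square per degree of freedom over genes was 69.2 for the pair of 2i+LIF libraries, 46.9 and 42.8 for Mtgr1-/- clone C3 against A3 and C1 (6.99 between A3 and C1), and 24.4 for the Prdm14-/- pair, against 3.42 for E294K. Many results of single core factors that rest on these libraries are given with and without them. Counts and medians of the other gene lists are given only with all libraries. The study used 2 kinds of sequencer, and which library was read on which is not given in the sources used here, so instrument and condition cannot be told apart.

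Each of the 9 genes was detected in all 15 libraries, with the fewest reads for Lin28b (27 to 1512). Their summed level ran from 1345 to 2064 RPKM, a 1.53-fold range, whereas the sum of a list of 13 naive pluripotency genes ran from 275.6 to 1764 RPKM (6.4-fold) and that of 10 post-implantation epiblast genes from 45.4 to 558.6 RPKM (12.3-fold). The gene lists were chosen with earlier results of these data known. The naive, epiblast and extraembryonic endoderm lists hold genes that the paper itself reports as changed in these libraries. Their counts and medians therefore describe the listed genes and are no independent test that such genes moved. Pou5f1, Sox2 and Utf1 made up 68.3% to 90.0% of the core sum, so that the sum says little about the other 6 genes. Single members ranged more widely than the sum. The highest library exceeded the lowest by 2.4-fold for Sall4, 3.06-fold for Pou5f1, 4.02-fold for Dppa4, 4.12-fold for Sox2, 4.5-fold for Trim71, 6.95-fold for Lin28a, 8.16-fold for Utf1, 8.37-fold for Dppa2 and 29-fold for Lin28b. By the standard deviation of log2(RPKM + 0.5) over the libraries, Pou5f1 and Sall4 varied more than 42.7% and 46.4% of the other genes tested, whereas Lin28b varied more than 96.3% and Lin28a more than 89.7%. The core therefore spans genes near the middle of the transcriptome in variability and genes near its top.

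**Figure D1:**
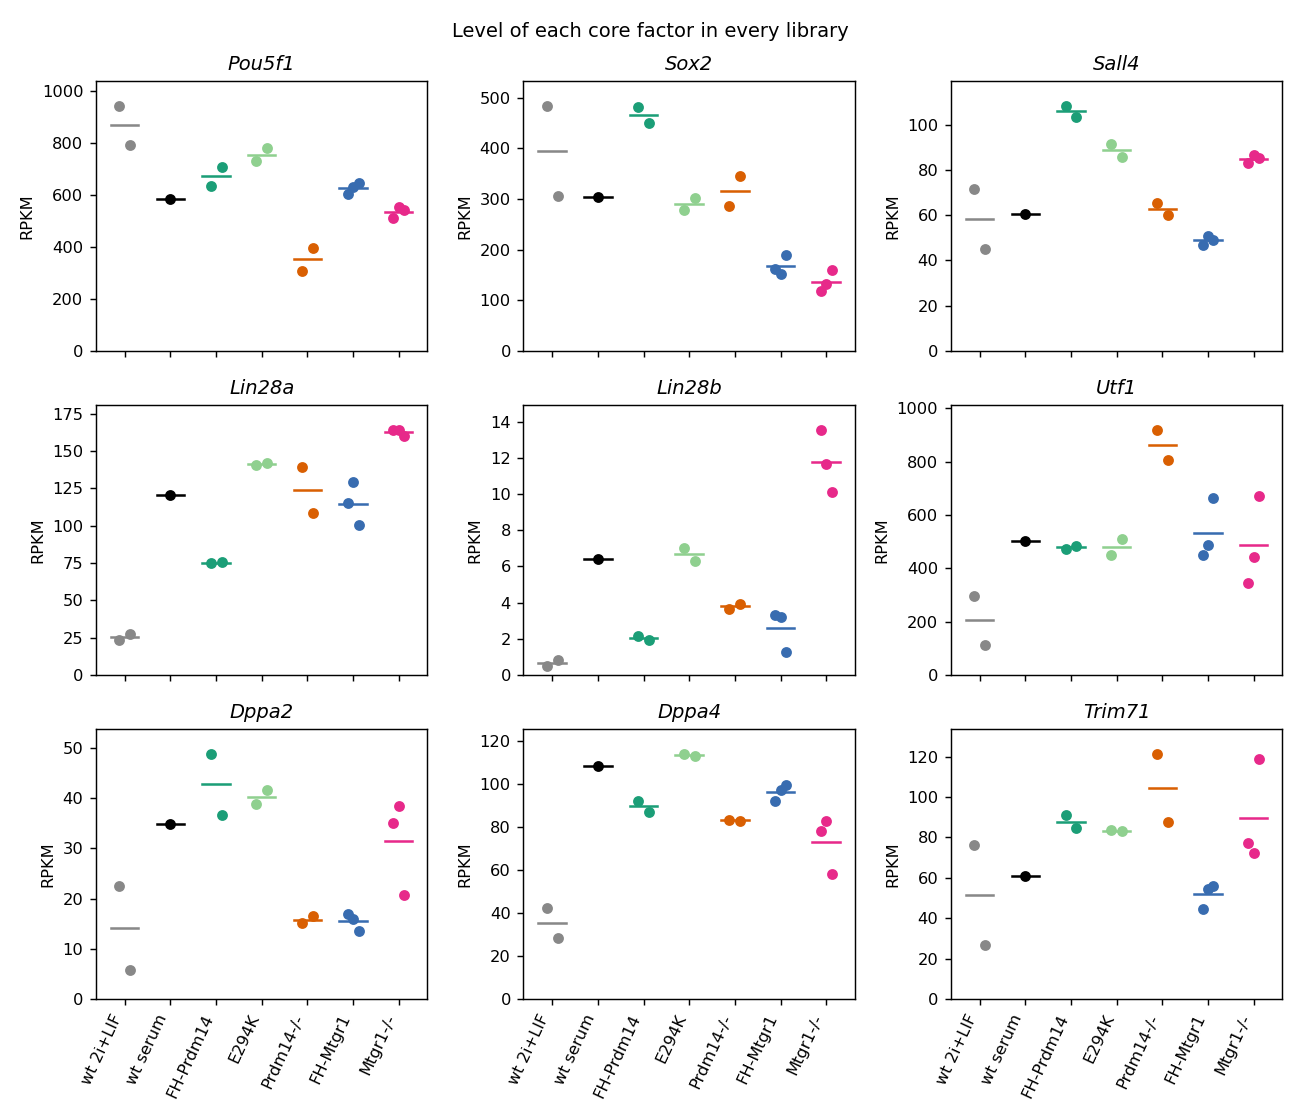
RPKM (vertical axes, linear and starting at 0) of the 9 core factors in the 7 conditions; each point is 1 library and each line the mean of its condition. Lin28a and Lin28b are lowest in both 2i+LIF libraries, Pou5f1 is lowest in the Prdm14-/- pair (308 and 395 RPKM), and Sox2 is lower in all 6 Mtgr1-/- and FH-Mtgr1 libraries (118 to 188 RPKM) than in the other 9 (278 to 485 RPKM).

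Differences were tested for 13477 genes with limma on log2(RPKM + 0.5), in a model of all 15 libraries with 1 mean per condition. A difference is called where the adjusted p (limma, Benjamini-Hochberg over all genes tested) is under 0.05. Differences are on the log2 scale, first-named minus second-named condition, with their 95% interval where 2 values follow in parentheses. In 11 comparisons between conditions, many of which share libraries, 34 of 99 differences of core factors were called, and 16 of these exceeded 1 on the log2 scale. For 41 of the 99 (41.4%) the whole 95% interval of the difference lay within 2-fold in either direction, against 53.2% of the differences of all genes tested. Lin28a was called in 7 comparisons, Sall4 in 6, Pou5f1 and Lin28b in 5 each, Sox2 and Dppa2 in 4 each, Dppa4 in 2 and Utf1 in 1. Trim71 was called in none of the 11, and its interval lay within 2-fold in only 2 of them. Dppa4 stayed within 2-fold in 9 of the 11, Pou5f1 in 8, and Sall4 and Lin28a in 7 each.

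In Mtgr1-/- cells against the FH-Mtgr1 rescue, Lin28b, Sall4, Lin28a and Dppa2 were higher and Dppa4 was lower, while Pou5f1, Sox2, Utf1 and Trim71 were not called. That is 5 of 9 core factors, beside 52.3% of all genes tested, a share near the background. The median size of the core differences was 0.51 on the log2 scale, against 0.50 over all genes. Among 13 naive genes, 6 fell and 1 rose (median size 0.82), with Tbx3 at -2.34, Tcl1 at -1.71 and Esrrb at -1.20 on the log2 scale. Among 9 post-implantation epiblast genes tested, 4 rose and 1 fell, with Pou3f1 at 2.25, Fgf5 at 2.21 and Sox3 at 1.87. Of 12 extraembryonic endoderm genes tested, 6 rose and 3 fell (Krt19 3.78, H19 1.81, Gata4 -1.75). The 95% interval stayed within 2-fold for 5 of 9 core factors, 4 of 13 naive genes, 1 of 9 epiblast genes and 1 of 12 endoderm genes, and for 55.6% of all genes tested, the same share as in the core.

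In Prdm14-/- cells against the FH-Prdm14 rescue, Pou5f1, Sall4 and Dppa2 were lower and Lin28a was higher. These are 4 of 9, beside 25.2% of all genes tested, and the core's median size was 0.75 on the log2 scale against 0.36 over all genes. All but 1 of the 13 naive genes fell (12, with a median of -1.70), led by Klf4 at -2.72, Tbx3 at -2.62 and Nr5a2 at -2.17. Epiblast genes rose in 7 of 9 cases (Fgf5 3.78, Pou3f1 3.28, Wnt8a 2.60) and endoderm genes in 7 of 12 (H19 3.27, Krt19 2.98, Fgfr2 2.66). Dppa4 was the only core factor whose interval stayed within 2-fold, 1 of 9 beside 60.6% of all genes tested. The FH-Prdm14 lines carry far more Prdm14 RNA than wt cells, so this comparison sets Prdm14-/- cells against lines above the wt level. Against the single wt serum+LIF library, Prdm14-/- cells differed in 1 core factor, Pou5f1, beside 25.4% of all genes tested, and 4 of 9 intervals lay within 2-fold, beside 41.2% of all genes. Of the naive genes, 2 of 13 were lower (Tet2 -2.18 and Esrrb -0.99) and 11 were not called, with a median of -0.67 on the log2 scale, beside a median size of 0.69 for the core.

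**Figure D2:**
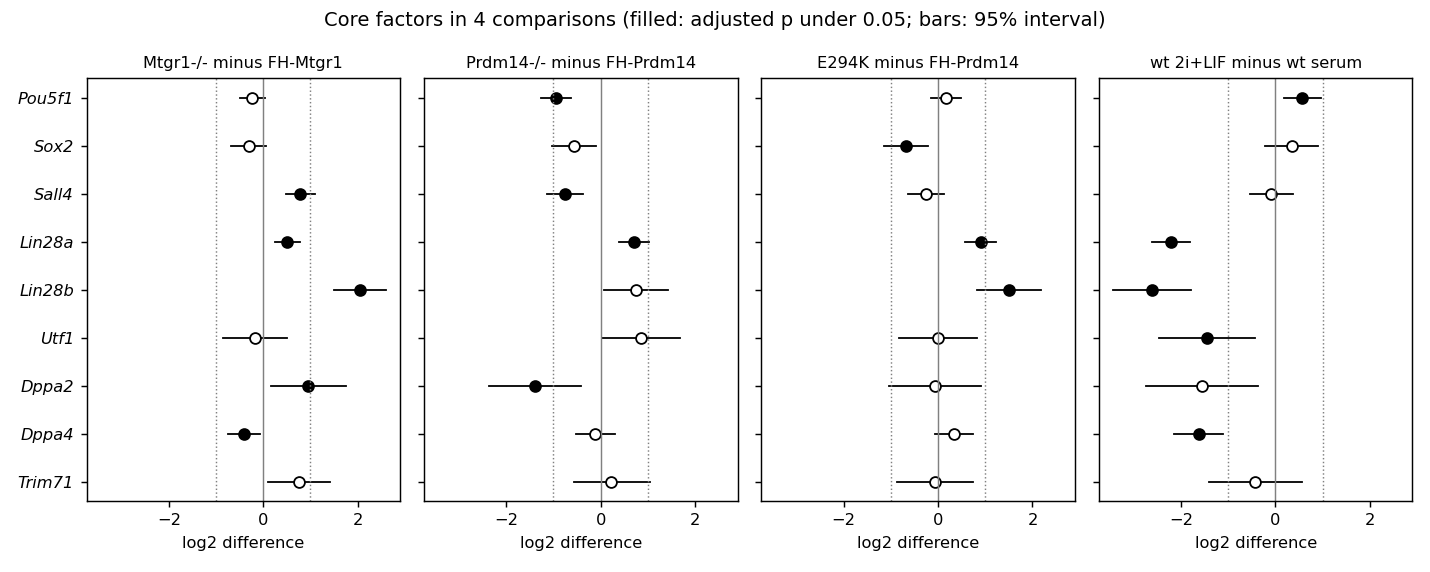
Log2 difference (horizontal axes) of each core factor in 4 comparisons, with its 95% interval from limma; filled points have an adjusted p under 0.05 and dotted lines mark 2-fold. Lin28a and Lin28b lie to the right of 0 in both knockouts and in E294K, and to the left in 2i+LIF, whereas Sall4 and Dppa2 lie on opposite sides of 0 in the 2 knockouts.

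The E294K lines differed from FH-Prdm14 in 3 core factors, Lin28a and Lin28b (higher) and Sox2 (lower), beside 19.5% of all genes tested. The core's median size was 0.26 on the log2 scale, against 1.04 for the naive genes, of which 8 of 13 fell (Klf2 -1.64, Tbx3 -1.54, Tcl1 -1.53), and 0.35 over all genes. The interval lay within 2-fold for 5 of 9 core factors and 2 of 13 naive genes, beside 62.6% of all genes tested. Against Prdm14-/- cells, E294K was higher in 3 core factors, Pou5f1, Sall4 and Dppa2, beside 32.9% of all genes tested.

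In wt cells in 2i+LIF against the single serum+LIF library, Lin28b, Lin28a, Dppa4 and Utf1 were lower and Pou5f1 was higher, 5 of 9 beside 22.9% of all genes tested. The median size was 1.45 on the log2 scale for the core, 0.61 for the naive genes, 1.21 for the epiblast genes and 0.45 over all genes. The core value rests on the second 2i+LIF library, since it was 0.69 without that library and 1.92 without the first. The values of the naive and epiblast genes were not recomputed in this way, so the lists can be compared only with both libraries in. Of the naive genes 4 of 13 rose (Tcl1 3.54, Nr5a2 1.90, Tfcp2l1 1.63), and of the epiblast genes 5 of 9 fell (Dnmt3b -4.23, Pou3f1 -2.66, Otx2 -1.91). The serum library has no replicate, so its spread is assumed to be that of the other conditions. With only the 3 wt libraries in the fit, 0 core factors and 0 of all genes passed limma's adjusted threshold, while 3 core factors and 1593 genes had an unadjusted p under 0.05.

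**Figure D3:**
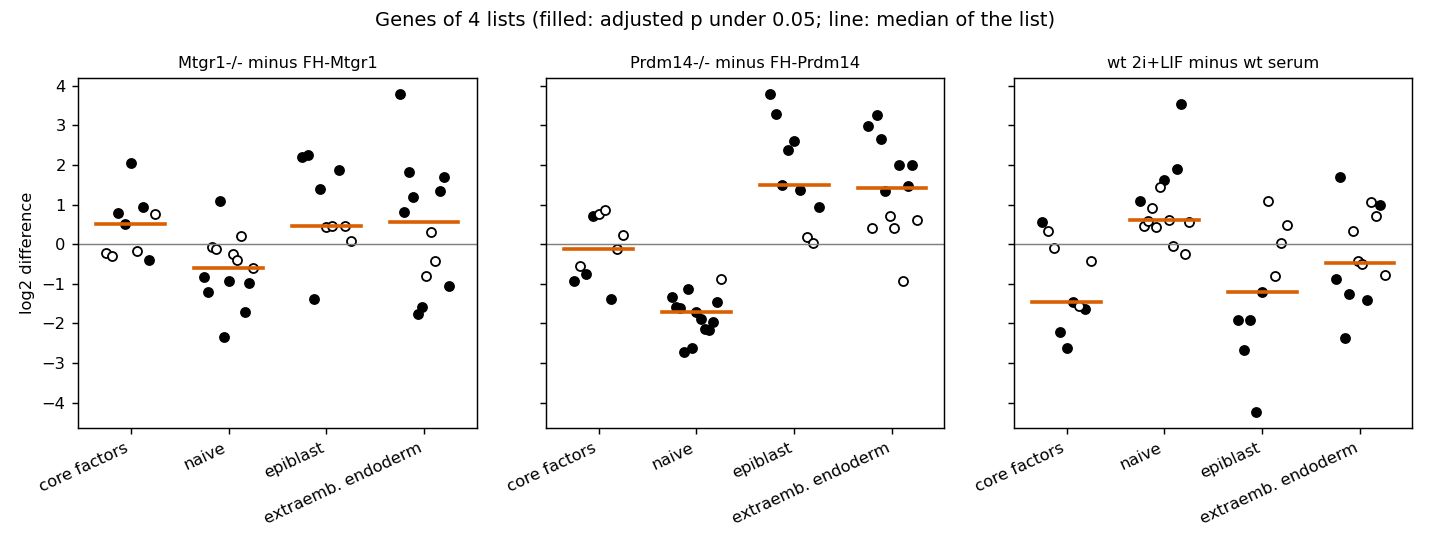
Log2 differences (vertical axis) of the genes tested of 4 lists in 3 comparisons; each point is 1 gene, filled where the adjusted p is under 0.05, and the line is the median of the list. The naive list centres on -1.70 in Prdm14-/- against FH-Prdm14 while the core straddles 0, and in 2i+LIF against serum+LIF the core has a median of -1.45, which is -0.62 without the second 2i+LIF library.

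Pou5f1, on chromosome 17 (35642982 to 35647721, as for all positions here in NCBIM37, that is mm9), encodes Oct4, and ranked 104th of all genes by mean level. It was at 585 RPKM in wt serum+LIF cells and at 943 and 792 RPKM in 2i+LIF. Prdm14-/- cells had 308 (G6) and 395 (F10) RPKM, FH-Prdm14 634 and 709, and E294K 780 (G6) and 728 (F10). The Mtgr1-/- clones had 512, 552 and 540 RPKM (A3, C1, C3) and their rescues 603, 631 and 647. The Prdm14-/- pair thus lay below all other libraries, and both clones had more Pou5f1 with either form of Prdm14. Pou5f1 fell by 0.94 on the log2 scale against FH-Prdm14 (standard error 0.15, limma adjusted p = 0.000751, and -0.76 without clone G6 and -1.12 without F10) and was lower than in the wt library (-0.75, limma adjusted p = 0.0142), a call lost without clone G6 (-0.57, limma adjusted p = 0.0831). E294K exceeded Prdm14-/- by 1.11 (limma adjusted p = 0.000428) and differed from FH-Prdm14 by 0.17, with an interval of -0.15 to 0.49. Mtgr1-/- differed from FH-Mtgr1 by -0.23 (-0.49 to 0.03) and from the wt library by -0.13 (-0.50 to 0.24), both intervals within 2-fold. Mtgr1-/- cells had more Pou5f1 than Prdm14-/- cells, by 0.61 (limma adjusted p = 0.00461), again not called without clone G6 (0.44, limma adjusted p = 0.0592). The rise in 2i+LIF, 0.56 (limma adjusted p = 0.0427), came to 0.27 after adjustment for transcript GC content (limma adjusted p = 0.373) and to 0.44 without the first 2i+LIF library (0.106). Processed copies of Pou5f1 in the genome could share reads with it, which makes its level uncertain to that extent.

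Sox2, the partner of Oct4 (chromosome 3, 34548927 to 34551383), followed another order. It was at 304 RPKM in wt serum+LIF cells, at 485 and 306 in 2i+LIF, at 286 and 346 in Prdm14-/- cells (G6, F10), at 481 and 450 in FH-Prdm14 and at 302 and 278 in E294K. In the Mtgr1-/- clones it was at 118, 132 and 160 RPKM (A3, C1, C3), and their FH-Mtgr1 rescues had 162, 152 and 188. All 6 libraries of the Mtgr1 clones thus lay below the other 9, rescued or not. Mtgr1-/- cells had less Sox2 than the wt library (-1.17, standard error 0.24, limma adjusted p = 0.0032, and -1.29 without clone C3), while the difference from their own rescue was -0.30 (-0.68 to 0.07). The FH-Mtgr1 lines differed from the wt library by -0.86 (limma adjusted p = 0.0735). The adjusted p of limma was 0.018 with both 2i+LIF libraries left out of the fit, which was tried once the values were known. FH-Mtgr1 was also below FH-Prdm14, which exceeded it by 1.48 (limma adjusted p = 0.000148). Both Mtgr1 groups derive from the same 3 clones. Sox2 was also lower in Mtgr1-/- than in Prdm14-/- cells (-1.22, limma adjusted p = 0.000653). E294K had less Sox2 than FH-Prdm14 (-0.68, limma adjusted p = 0.0402), a call lost with the clone as a replicate block (adjusted p = 0.0624). It was kept in 13 of 24 alternatives of the processing. Median-of-ratios scaling (limma adjusted p = 0.0619) and no filter on low values (0.0602) also lost it, as did leaving out any library of either condition (-0.74 to -0.62). Sox2 lies within the long noncoding gene Sox2ot, and without strand the reads of overlapping genes cannot be told apart.

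Sall4 (chromosome 2, 168573832 to 168593443, minus strand) moved in opposite directions in the knockouts. Levels were 60.7 RPKM in wt serum+LIF, 71.6 and 45.2 in 2i+LIF, 65.5 and 60.0 in Prdm14-/- (G6, F10), 109 and 104 in FH-Prdm14 and 85.9 and 91.5 in E294K (G6, F10). They were 83.2, 86.7 and 85.3 RPKM in Mtgr1-/- (A3, C1, C3) and 46.8, 50.6 and 49.1 in FH-Mtgr1. Within each family the groups did not overlap. Sall4 was higher in Mtgr1-/- than in FH-Mtgr1 by 0.79 (standard error 0.14, limma adjusted p = 0.00058) and lower in Prdm14-/- than in FH-Prdm14 (-0.75, standard error 0.17, limma adjusted p = 0.00736), the latter lost without FH-Prdm14 G6 (adjusted p = 0.0602). The difference between these effects, 1.55 on the log2 scale, was called (limma adjusted p = 0.000517). Prdm14-/- cells differed from the wt library by 0.05 (-0.41 to 0.51), whereas FH-Prdm14 exceeded it by 0.80 (limma adjusted p = 0.0308, not called without either FH-Prdm14 library). E294K exceeded Prdm14-/- by 0.50 (limma adjusted p = 0.0443, and 0.0871 with the replicate block). That call was kept in 11 of 24 alternatives of the processing and lost without any library of either condition (0.43 to 0.56). Mtgr1-/- exceeded Prdm14-/- by 0.44 (limma adjusted p = 0.0477), a call lost without any 1 of the 3 Mtgr1-/- or the 2 Prdm14-/- libraries. FH-Prdm14 exceeded FH-Mtgr1 by 1.11 (limma adjusted p = 0.000254).

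Lin28a and Lin28b block let-7 by binding its precursors, and let-7 in turn targets messenger RNAs through its seed, bases 2 to 8. In RefSeq (GRCm38.p6) 11 mouse microRNAs share the seed of let-7, among them let-7a to let-7g, let-7i and miR-98, shown here by let-7a and miR-98 with the seed in capitals. The members' 3' UTRs in the NCBIM37 annotation were searched on the transcribed strand for CTACCTC, the letters that pair with this seed, which 8.3% of 19912 3' UTRs hold. Of the core factors, Lin28b held 4 matches in 4445 bases (24.0% of 3' UTRs of like length hold at least 1, and 0.218% as many). Lin28a held 2 in 2775 bases (15.3% at least 1, 2.34% as many) and Trim71 2 in 1370 bases (10.7% and 0.637%). Sall4 held 1 in 1697 bases (11.7%), and the letters are not in the 3' UTRs of the other 5. The matches of the Lin28 genes and Trim71 are shown with 14 bases before them and 1 after, in capitals where they pair with the seed.
let-7a: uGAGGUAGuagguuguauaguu
miR-98: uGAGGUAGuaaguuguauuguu
Lin28a, chr4:133561104-133561125, minus strand: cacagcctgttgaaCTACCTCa
Lin28a, chr4:133560466-133560487, minus strand: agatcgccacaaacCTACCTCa
Lin28b, chr10:45100828-45100849, minus strand: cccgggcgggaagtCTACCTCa
Lin28b, chr10:45098454-45098475, minus strand: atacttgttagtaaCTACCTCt
Lin28b, chr10:45098282-45098303, minus strand: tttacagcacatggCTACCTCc
Lin28b, chr10:45096866-45096887, minus strand: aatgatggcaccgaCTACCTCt
Trim71, chr9:114421590-114421611, minus strand: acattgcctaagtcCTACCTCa
Trim71, chr9:114421494-114421515, minus strand: gtgataatttctatCTACCTCa

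Lin28a, on chromosome 4, was at 120 RPKM in wt serum+LIF cells and at 23.6 and 27.3 RPKM in 2i+LIF. It was at 139 (G6) and 109 (F10) RPKM in Prdm14-/- cells, at 74.9 and 75.4 in FH-Prdm14 and at 142 and 140 in E294K. Mtgr1-/- cells had 164, 164 and 160 RPKM and FH-Mtgr1 115, 129 and 101 (A3, C1, C3). The replicates lay close together in 2i+LIF, FH-Prdm14, E294K and Mtgr1-/-, and these 4 conditions did not overlap with each other. Lin28a was lower in 2i+LIF than in serum+LIF (-2.22, standard error 0.18, limma adjusted p = 1.78e-05), also with either 2i+LIF library left out (-2.12 and -2.32). It was higher than in the matching rescue in Mtgr1-/- (0.51, limma adjusted p = 0.00413), Prdm14-/- (0.71, limma adjusted p = 0.00484) and E294K (0.90, limma adjusted p = 0.00173). The Prdm14-/- call was lost without clone G6 (0.53, adjusted p = 0.0586). The effects of the 2 knockouts differed by -0.20, with an interval of -0.62 to 0.22. FH-Prdm14 was below the wt library (-0.67, limma adjusted p = 0.0337, not called without either FH-Prdm14 library), and Prdm14-/- differed from it by 0.03 (-0.37 to 0.43). FH-Prdm14 was also below FH-Mtgr1 (-0.60, limma adjusted p = 0.00462). Mtgr1-/- exceeded Prdm14-/- by 0.40 (limma adjusted p = 0.0374), not after the adjustment for GC content (0.0776) or without Prdm14-/- F10 (0.23).

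Lin28b, on chromosome 10, had the widest range. It was at 6.40 RPKM in wt serum+LIF, at 0.468 and 0.809 in 2i+LIF, at 3.64 and 3.94 in Prdm14-/-, at 2.13 and 1.93 in FH-Prdm14 and at 6.31 and 7.04 in E294K (G6, F10). The Mtgr1-/- clones were at 13.6, 11.6 and 10.1 RPKM, above every other library, and the FH-Mtgr1 lines at 3.31, 3.22 and 1.29. Lin28b was higher in Mtgr1-/- than in FH-Mtgr1 by 2.05 (standard error 0.25, limma adjusted p = 4.82e-05), the largest difference of a core factor in the knockouts (2.15 without clone C3), and higher than in Prdm14-/- by 1.51 (limma adjusted p = 0.00181). E294K exceeded FH-Prdm14 by 1.50 (limma adjusted p = 0.0058), lost without FH-Prdm14 F10 (adjusted p = 0.051) or E294K F10 (0.0571). The difference of Prdm14-/- from FH-Prdm14 was 0.76 (0.08 to 1.43, limma adjusted p = 0.0943). The Mtgr1 effect exceeded the Prdm14 effect by 1.29 (limma adjusted p = 0.0281). In 2i+LIF it was lower than in serum+LIF (-2.62, limma adjusted p = 0.000798), by similar amounts with either 2i+LIF library left out (-2.40 and -2.83). FH-Prdm14 was below the wt library (-1.45, limma adjusted p = 0.0297, and 0.133 after the adjustment for GC content). The call was also lost without either FH-Prdm14 library (-1.50 without G6 and -1.39 without F10). The Lin28b transcript has the lowest GC content of the core. The ratio of Lin28a to Lin28b in RPKM was 12.1 to 15.8 in Mtgr1-/-, 18.8 in wt serum+LIF, 19.9 to 22.4 in E294K, 27.6 to 38.2 in Prdm14-/-, 35.1 to 39.0 in FH-Prdm14, 33.8 to 50.4 in 2i+LIF and 34.6 to 77.7 in FH-Mtgr1. Lin28a thus predominated everywhere, least so in Mtgr1-/- cells.

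Trim71 (chromosome 9, 114420393 to 114473487, minus strand) was at 61.1 RPKM in wt serum+LIF, 76.0 and 27.0 in 2i+LIF, 121 and 87.9 in Prdm14-/- (G6, F10), 91.0 and 84.6 in FH-Prdm14 and 83.0 and 83.6 in E294K. It was at 77.3, 72.3 and 119 RPKM in Mtgr1-/- (A3, C1, C3), the highest in clone C3, and in FH-Mtgr1 at 44.7, 54.7 and 56.1. Mtgr1-/- and FH-Mtgr1 did not overlap, and their difference of 0.75 narrowly missed the threshold (0.10 to 1.41, limma adjusted p = 0.0527, and 0.53 without clone C3), though it passed with both 2i+LIF libraries left out of the fit (0.00414). The pair of 2i+LIF libraries differ most in Trim71, Dppa2 and Utf1, and that spread enters every comparison of the shared model.

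Other genes of the let-7 pathway were read from lists. Of 10 let-7 and Trim71 targets, 7 rose and 2 fell in Mtgr1-/- against FH-Mtgr1, beside 52.3% of all genes tested, with a median of 1.21 on the log2 scale against -0.01 over all genes. The largest differences were those of Myc (3.02), Mycn (2.28) and Ccnd1 (1.79), a cyclin. The 2 that fell were Cdkn1a (-1.13), a cell cycle inhibitor known as a target of Trim71, and Igf2bp2 (-0.71). The list also holds general growth genes, and let-7 itself was not measured here. In Prdm14-/- against FH-Prdm14, 2 rose and 1 fell (Arid3a 1.19, Ccnd1 -1.0, Cdkn1a 0.61), near the 25.2% of all genes, and in E294K against FH-Prdm14, 3 rose and 1 fell (Myc 1.57, Cdkn1a -1.37, Hmga2 0.82), beside 19.5%. Of 6 genes that process let-7 or act with Lin28, Dgcr8 (2.09) and Drosha (0.90), which together cut the primary transcript, rose in Mtgr1-/- against FH-Mtgr1. The uridylyltransferases Zcchc11 (-0.66) and Zcchc6 (-0.65), which tail the let-7 precursor bound by Lin28, and the nuclease Dis3l2 (-0.76), which degrades it, fell. In Prdm14-/- against FH-Prdm14 the interval of all 6 lay within 2-fold, beside 60.6% of all genes tested.

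Utf1, a chromatin-associated factor on chromosome 7 (147129688 to 147131011), ranked 114th of all genes by level. It was at 501 RPKM in wt serum+LIF cells, 297 and 113 in 2i+LIF, 920 and 806 in Prdm14-/- (G6, F10), 472 and 484 in FH-Prdm14 and 510 and 449 in E294K. Levels in the Mtgr1 clones were 343, 444 and 669 RPKM without and, with FH-Mtgr1, 449, 489 and 664, with clone C3 highest in both. The Prdm14-/- pair lay above all other libraries. Their difference from FH-Prdm14 was 0.85 (0.02 to 1.68) and did not pass the threshold (limma adjusted p = 0.127), but it did with only the compared conditions (0.0152) or without the 2i+LIF libraries (0.0283). Mtgr1-/- differed from FH-Mtgr1 by -0.17 (-0.85 to 0.51). The level in 2i+LIF was lower than in serum+LIF (-1.45, limma adjusted p = 0.0421), and the difference was -0.75 without the second 2i+LIF library. This call was kept in 8 of 21 alternatives of the processing. No filter on low values (limma adjusted p = 0.0768) and median-of-ratios scaling (0.0604) were among those that lost it.

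Dppa2 and Dppa4 encode SAP-domain proteins that bind each other. They are neighbours on chromosome 16 on the same strand, Dppa4 from 48283848 to 48294405 and Dppa2 from 48310590 to 48319836, separated by 16184 bases with no annotated gene between. Dppa2 was at 34.9 RPKM in wt serum+LIF, 22.5 and 5.83 in 2i+LIF, 15.1 and 16.4 in Prdm14-/- (G6, F10), 48.8 and 36.7 in FH-Prdm14 and 41.7 and 38.9 in E294K. Mtgr1-/- cells had 35.1, 38.5 and 20.7 RPKM (A3, C1, C3) and FH-Mtgr1 17.0, 15.9 and 13.6. Neither knockout overlapped its rescue. Dppa2 was higher in Mtgr1-/- than in FH-Mtgr1 (0.95, limma adjusted p = 0.0439, and 0.0718 with the replicate block, with a difference of 1.23 without clone C3) and lower in Prdm14-/- than in FH-Prdm14 (-1.39, limma adjusted p = 0.0384, and 0.071 with the block). The difference between these effects was 2.35 (standard error 0.58, limma adjusted p = 0.00959), the largest of the core. The 2 single calls were each lost without any 1 library of their comparison other than Mtgr1-/- C3 (adjusted p from 0.0699 to 0.137 in Mtgr1-/- and from 0.0948 to 0.199 in Prdm14-/-). E294K exceeded Prdm14-/- (1.32, limma adjusted p = 0.0397), but not with the block (0.0683) or after the adjustment for GC content (0.113). Against the single wt library, Dppa2 differed by -0.20 (-1.32 to 0.93) in Mtgr1-/- and by -1.15 (-2.27 to -0.03) in FH-Mtgr1. In Prdm14-/- it differed by -1.12 (-2.31 to 0.07), and none of these differences from the wt library was called. In 2i+LIF Dppa2 differed from serum+LIF by -1.55 (limma adjusted p = 0.0599), -2.48 without the first and -0.62 without the second 2i+LIF library. FH-Prdm14 exceeded FH-Mtgr1 by 1.43 (limma adjusted p = 0.0153, and 0.123 without FH-Prdm14 G6).

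Dppa4 was at 108 RPKM in wt serum+LIF, 42.3 and 28.4 in 2i+LIF, 83.3 and 82.8 in Prdm14-/-, 92.2 and 87.1 in FH-Prdm14 and 113 and 114 in E294K (G6, F10). Mtgr1-/- cells had 78.0, 82.8 and 58.2 RPKM and FH-Mtgr1 92.0, 97.0 and 99.5. The 2i+LIF pair lay below all other libraries, lower than serum+LIF (-1.63, standard error 0.23, limma adjusted p = 0.000709, and -1.92 and -1.34 with either 2i+LIF library left out). Dppa4 was lower in Mtgr1-/- than in FH-Mtgr1 (-0.41, limma adjusted p = 0.042), lost with the block (0.0695) and at -0.26 without clone C3 (adjusted p = 0.164). That call was kept in 11 of 24 alternatives of the processing. No filter on low values (limma adjusted p = 0.0565) and leaving out Mtgr1-/- A3 or any FH-Mtgr1 library also lost it. In the same comparison the neighbour Dppa2 was higher. Prdm14-/- differed from FH-Prdm14 by -0.11 (-0.52 to 0.31), within 2-fold, where Dppa2 fell.

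**Figure D4:**
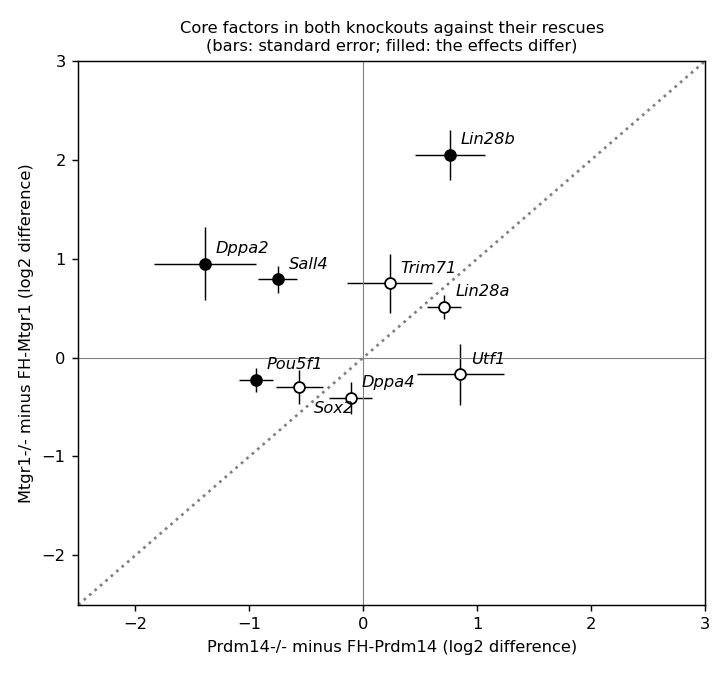
Log2 difference of each core factor in Mtgr1-/- minus FH-Mtgr1 (vertical axis) and Prdm14-/- minus FH-Prdm14 (horizontal axis), with standard errors; filled points are those whose effects differ at an adjusted p under 0.05, and the dotted line marks equal effects. Sall4 and Dppa2 lie at the upper left, above 0 on one axis and below 0 on the other, Lin28b far above the line and Pou5f1 left of it.

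Set side by side, the effects of losing Mtgr1 and of losing Prdm14, each against its own rescue, differed for 4 of 9 core factors (Dppa2, Sall4, Lin28b and Pou5f1), beside 31.4% of all genes tested. For Sox2, Lin28a and Dppa4 the interval of the difference between effects lay within 2-fold. The 2 knockouts compared directly differed in 5 of 9 (Pou5f1, Sall4, Lin28a and Lin28b higher in Mtgr1-/-, Sox2 lower), beside 35.4% of all genes tested. The rescues also differed from each other, in Sox2, Sall4, Dppa2 and Lin28a, 4 of 9 beside 41.6% of all genes tested. Against the single wt serum+LIF library, Mtgr1-/- cells differed in Sox2 alone, 1 of 9 beside 37.0% of all genes tested, while 11 of 13 naive genes fell (Esrrb -2.66, Nr0b1 -2.47, Tet2 -2.38). The 95% intervals of Sall4 (0.05 to 0.92), Lin28a (0.06 to 0.81), Lin28b (0.04 to 1.60) and Dppa4 (-1.06 to -0.10), though not called, also excluded 0. In this comparison 3 of 9 core intervals lay within 2-fold, beside 41% of all genes tested. FH-Prdm14 differed from the wt library in Sall4, Lin28a and Lin28b, 3 of 9 beside 12.5%. FH-Mtgr1 differed from the wt library in 0 of 9 by limma's adjusted p, beside 2.74% of all genes tested. Unadjusted, 3 of 9 had a limma p under 0.05 (Sox2, Lin28b and Dppa2), and for this fit the count of all genes at that cut is not given. With 0.1 or 1 added to the RPKM before the log, 3 of 9 passed the unadjusted cut too. They stood beside 2778 and 2884 of the 13477 genes tested, so the cut is passed by many genes. Voom called 1 core factor by its adjusted p, and its count of all genes is given below with the other alternatives. For 4 of the 9 the interval lay within 2-fold, beside 60.8% of all genes tested.

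Across the 15 libraries some members moved together. Pearson's r of log2(RPKM + 0.5) was 0.867 for Lin28a with Lin28b, 0.834 for Sall4 with Dppa2, 0.751 for Lin28a with Dppa4, 0.729 for Utf1 with Trim71, 0.702 for Sall4 with Trim71, 0.693 for Utf1 with Dppa4, 0.672 for Lin28a with Utf1 and 0.602 for the neighbours Dppa2 and Dppa4. It was 0.27 for Pou5f1 with Sox2, -0.636 for Pou5f1 with Utf1 and -0.612 for Sox2 with Lin28a. The 15 points share clones and conditions, so these values describe the libraries only. Among all genes tested, those most like each member were Pccb (0.925) and Apip (0.910) for Pou5f1, Dock6 (0.975) and Rfx2 (0.972) for Sox2, Ston2 (0.947) and Peo1 (0.942) for Sall4, and Pwwp2b (0.985) and Lad1 (0.972) for Lin28a. They were Foxp1 (0.980) and Rem2 (0.965) for Lin28b, Tcfl5 (0.956) and Cacna1b (0.934) for Utf1, Fsd1l (0.935) and Fgf15 (0.931) for Dppa2, Rhd (0.954) and Mkrn1 (0.948) for Dppa4, and Celsr3 (0.956) and Wipi2 (0.942) for Trim71. No core factor was among the 2 genes most like another.

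Markers of other cell types moved in the same libraries. The summed level of 4 trophoblast markers (Cdx2, Elf5, Gata3 and Krt7, carried by Krt7) was 69.9 to 91.8 RPKM in Prdm14-/- and 94.5 to 121.7 in Mtgr1-/- cells, against 4.57 to 13.1 elsewhere. That of 4 neural markers was 96.1 to 123.7 RPKM in Mtgr1-/- and 16.0 to 67.8 elsewhere, carried by Nes and Tubb3. The other 2, Sox1 (0.525 to 0.648 RPKM in Mtgr1-/-, 0.171 to 8.41 elsewhere) and Pax6 (0.048 to 0.466, against 0.187 to 0.804), did not exceed the highest level elsewhere. Of 5 fibroblast markers the sum was 2.06 to 27.4 RPKM over all libraries, of which Thy1 was 5.67 to 9.89 in the knockouts and 1.62 to 24.6 elsewhere. Col1a1 was at 4.81 to 16.7 RPKM in the knockouts and 0.0831 to 2.97 elsewhere, and Col1a2 at 0.727 to 2.95 against 0 to 0.227. Col1a1 was higher in Mtgr1-/- than in FH-Mtgr1 by 1.72 on the log2 scale (limma, adjusted p = 0.00465) and was not called in Prdm14-/- against FH-Prdm14 (1.41, adjusted p = 0.0648). Col1a2 was higher in both comparisons (1.77, limma adjusted p = 0.0016, and 1.67, limma adjusted p = 0.0173). Thy1 went the other way in Mtgr1-/- against FH-Mtgr1 (-1.74, limma adjusted p = 3.77e-06) and was not called in Prdm14-/- against FH-Prdm14 (-0.25). Col3a1 was at most 0.619 and Postn at most 0.118 RPKM in any library, and the sum of 4 mesoderm markers was 0.328 to 3.0 RPKM. In bulk RNA fewer cells that express a gene and less RNA per cell cannot be told apart, and the part of such cells in the differences of Pou5f1, Sox2 and the other core factors was not tested. The median of all genes differed from 0 by 0.10 to 0.11 on the log2 scale in 4 comparisons (2i+LIF, Mtgr1-/- and FH-Mtgr1 against wt serum+LIF at -0.10, -0.11 and -0.11, and FH-Prdm14 against FH-Mtgr1 at 0.11), and no called difference of a core factor changed direction with scaling.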

How the data were processed

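RNA-seq libraries of mESCs in 7 conditions were used (15 libraries), and ChIP-seq was not used. The authors ran Tophat on single-end reads against mm9 and HTSeq on RefSeq gene models, and deposited RPKM with the gene length used. RPKM times length, divided by the smallest step in a library, gave whole reads for 100.0% of values within 0.01.

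Values were taken as log2(RPKM + 0.5), a scale that understates differences of low genes, for genes at 1 RPKM or more in at least 2 libraries (13477). limma 3.58.1 in R 4.3.3 fitted 1 mean per condition (eBayes with trend, Benjamini-Hochberg adjustment, threshold 0.05), after a test on simulated data. The wt serum+LIF condition has 1 library and borrows its spread from the other conditions. Conditions and clones came from the labels. Knockout and rescue libraries share a clone, so the clone was also fitted as a replicate block. Deviations of same-clone libraries correlated at 0.063 (A3), -0.182 (C1) and 0.028 (C3) for Mtgr1, 0.299 for Prdm14-/- with FH-Prdm14, 0.080 for E294K with FH-Prdm14 and 0.040 for E294K with Prdm14-/-.

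Members and lists were chosen with earlier results of these data known. The text names all members and, per list, up to 3 genes with the largest difference among those called. Alternatives were pseudocounts of 0.1 and 1, no filter, median-of-ratios scaling, only the compared conditions, voom on the recovered reads, lowess adjustment for transcript GC content (span 0.3, 89.5% of genes with a value), the block, each library left out and, chosen after the data were seen, both 2i+LIF libraries left out. 3' UTRs and positions came from NCBIM37 with its GENCODE annotation and microRNAs from RefSeq. Python 3.11.15 with pandas 2.3.3 did the rest.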

Additional observations from a re-analysis of the deposited data

Results flagged for a closer look

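The effects of 4 core factors differed between the knockouts, by a test of the difference itself (Mtgr1-/- minus FH-Mtgr1, less Prdm14-/- minus FH-Prdm14, limma with Benjamini-Hochberg adjustment). The difference was 2.35 on the log2 scale for Dppa2 (standard error 0.58, adjusted p = 0.00959) and 1.55 for Sall4 (standard error 0.22, adjusted p = 0.000517), and both stayed past the threshold in all alternatives run. It was 1.29 for Lin28b (standard error 0.40, adjusted p = 0.0281) and 0.71 for Pou5f1 (standard error 0.19, adjusted p = 0.0147). The Pou5f1 value was not called without Prdm14-/- G6 (0.53, adjusted p = 0.0648) or FH-Prdm14 F10 (0.63, adjusted p = 0.0755). That of Lin28b was not called without any 1 of the 4 Prdm14-/- and FH-Prdm14 libraries (adjusted p from 0.0622 to 0.0929), without Mtgr1-/- A3 (0.0604) or C1 (0.0505), or with no filter on low values (0.0506). The Prdm14 rescues carry more Prdm14 RNA than wt cells, and its part in these differences was not tested. For Dppa2 the FH-Mtgr1 rescue differed from the single wt library by -1.15 and Mtgr1-/- cells by -0.20, neither called. The rise of Dppa2 in Mtgr1-/- is thus a difference from its rescue, not from the wt library.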

How the results depend on the processing

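Of 38 calls of core members (the test of the difference between the knockouts included), 14 held in every alternative run, among them Sall4, Lin28a and Lin28b in Mtgr1-/- against FH-Mtgr1, Pou5f1 in Prdm14-/- against FH-Prdm14, and Sox2 in Mtgr1-/- against wt cells. No called difference changed direction. Over 2457 single values recomputed, 155 lost and 95 gained the call. With 2 or 3 libraries a condition and 1 of wt serum+LIF cells, most lost calls are those with an adjusted p just under 0.05. The causes of these changes were not tested, apart from fits with fewer libraries, which have fewer degrees of freedom.

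The number of core members called with 1 library left out ranged from 3 to 6 in Mtgr1-/- against FH-Mtgr1, 2 to 6 in Prdm14-/- against FH-Prdm14, 1 to 3 in E294K against FH-Prdm14, 1 to 5 in E294K against Prdm14-/-, 3 to 7 in Mtgr1-/- against Prdm14-/-, 3 to 6 in 2i+LIF against serum+LIF, and 2 to 5 for the difference between the knockout effects. Against the wt library it ranged from 1 to 4 in Mtgr1-/-, 0 to 2 in Prdm14-/- (0 without G6, with 1 at an unadjusted p under 0.05), 0 to 3 in FH-Mtgr1 and 0 to 4 in FH-Prdm14 (0 without either of its libraries, with 3 at an unadjusted p under 0.05), and between the rescues from 3 to 5. With the replicate block by clone, the paired comparisons gave 3 core members in Mtgr1-/- against FH-Mtgr1 and 1 in E294K against Prdm14-/-, and without a filter on low values 3 and 1, with 3 in 2i+LIF against serum+LIF. The block moved no count of the other paired comparisons by over 1.5 times. These counts show how calls depend on the processing, and they are not a result about the core by themselves. The number of all genes called changes with the fit too. In E294K against FH-Prdm14, for example, the compared conditions alone gave 5 core members beside 7214 of 13477 genes. Fitted on the compared conditions alone, limma called 7 core members in Prdm14-/- against FH-Prdm14, 5 in E294K against FH-Prdm14, 6 in E294K against Prdm14-/-, 5 in FH-Prdm14 against wt, 0 in 2i+LIF against serum+LIF (3 at an unadjusted p under 0.05) and 0 in Prdm14-/- against wt (2 unadjusted). Mtgr1-/- against wt gave 4 core members with median-of-ratios scaling, 3 with voom and 3 with GC adjustment, and FH-Mtgr1 against wt 1 with voom. Without both 2i+LIF libraries the counts were 5 in E294K against Prdm14-/- and, against wt, 4 in Mtgr1-/-, 2 in Prdm14-/- and 3 in FH-Mtgr1. Among all genes, the number called moved most in fits of the compared conditions alone, to 7214 in E294K against FH-Prdm14, 5058 in FH-Prdm14 against wt, 625 in Prdm14-/- against wt, 0 in 2i+LIF against serum+LIF (1593 unadjusted) and 0 in FH-Mtgr1 against wt (3102 unadjusted). FH-Mtgr1 against wt called 639 of all genes with voom, 595 with GC adjustment and 1279 without the 2i+LIF libraries, and 18 to 1292 with 1 library left out. FH-Prdm14 against wt called 3154 of all genes without the 2i+LIF libraries and 297 to 3167 with 1 library left out. With 1 library left out the other counts over all genes fell at most to 1521 in Prdm14-/- against FH-Prdm14, 747 in E294K against FH-Prdm14, 1492 in E294K against Prdm14-/-, 2979 in Mtgr1-/- against Prdm14-/-, 895 in Prdm14-/- against wt, 2688 between the rescues and 2524 for the difference between the knockout effects.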

Other observations

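Relatives of the core factors had patterns of their own. Sall2, a paralog of Sall4, was higher in Mtgr1-/- than in FH-Mtgr1 (log2 difference 1.91), in Prdm14-/- than in FH-Prdm14 (1.85) and in E294K than in FH-Prdm14 (1.13), all past limma's threshold after Benjamini-Hochberg adjustment, so that it moved with Sall4 in one knockout and against it in the other. Sall1 was not called in these 3 comparisons (0.60, 0.24 and -0.07). Sox15, a Sox gene of the same tissue, was lower in Mtgr1-/- than in FH-Mtgr1 (-1.61) and than in the wt library (-2.69). Trim2, of the same family as Trim71, was higher in Mtgr1-/- (1.62) and E294K (1.34) than in the rescues and lower in 2i+LIF than in serum+LIF (-2.25).

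Among 14 pluripotency-associated genes and Oct4/Sox2 targets, 4 rose and 4 fell in Mtgr1-/- against FH-Mtgr1 (Lefty2 2.71, Dppa5a -1.79, Fgf4 -1.59), a share near the 52.3% of all genes, and 2 rose and 6 fell in Prdm14-/- against FH-Prdm14 (Lefty1 2.70, Tdh -1.93, Fbxo15 -1.85), beside 25.2% of all genes. Fgf4, a classic shared target of both factors, was lower in both knockouts than in the rescue (-1.59 and -1.23) and than in the wt library (-2.53 and -1.42).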
